A study of Glycine max with 6 samples.

Results

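The flavonoid pathway of the soybean seed coat turns phenylalanine into pigments, and its middle section is formed by chalcone isomerase (CHI), flavanone 3-hydroxylase (F3H) and flavonol synthase (FLS). These enzymes were followed on 17 of the 37641 soybean probe sets of the Affymetrix Soybean GeneChip. As 28594 of the 37641 have no gene symbol, further probe sets of these enzymes may lie outside the 17. Of the 17, 16 were taken because the annotation of the array gives each a single symbol of the CHI, F3H or FLS families. They cover 7 genes. The remaining probe set has no symbol and was called F3H-like in the study for its similarity to a putative Arabidopsis flavanone 3-hydroxylase.

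Seed coats were taken from untreated Clark soybeans of 2 nearly-isogenic lines grown in a controlled cabinet. The black (iRT) line carries the dominant allele R and the brown (irT) line the recessive allele r, while both carry the alleles i and T. In this background R is known as the locus that sets black, anthocyanin-bearing against brown seed coats, and the comparison asks which transcripts differ with it. Seeds weighed 300 to 400 mg fresh, a stage called the transition stage, and RNA of 3 plants of each genotype was hybridized to 1 array a plant. Only this 1 pair of lines was compared, so the R locus cannot be told apart from other loci at which the isolines differ.

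CHI closes the third ring of a chalcone to give a flavanone. F3H hydroxylates the flavanone to a dihydroflavonol, which FLS oxidizes to a flavonol and dihydroflavonol reductase (DFR) reduces on the way to anthocyanins and proanthocyanidins. F3H and FLS belong to the same class of 2-oxoglutarate-dependent dioxygenases. Legumes have several forms of CHI. Type I acts on naringenin chalcone, and type II also acts on the 5-deoxy chalcone that leads to isoflavones of the daidzein kind. Proteins of types III and IV share the fold but lack the isomerase activity. In Arabidopsis, type III proteins bind fatty acids and the type IV protein promotes flavonoid production.

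The only sequences of these probe sets shown here are a pair of primers that the study lists for the F3H-like probe set. They are given because that probe set has no gene symbol. Whether the pair was used on seed coat cDNA is not stated for it. Each is written 5′ to 3′, and none of its bases is marked by capitals.
OXF: gcaagtggctaaccgtcaat
OXR: agatagttggagctagagtttgaaaaa
The forward primer OXF has 20 bases and a GC content of 50%, and the reverse primer OXR has 27 bases and a GC content of 33.3%.

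Signals are RMA values on the log2 scale, so a difference of 1 is a doubling. They can be compared between plants for 1 probe set but not between probe sets, and the place of a probe set on an array is therefore given as its rank among the soybean probe sets, from the brightest down. The 95th percentile of 23394 pathogen probe sets, which match no soybean transcript by design, served as the background level and lay between 3.54 and 3.78 on the 6 arrays. Any 2 arrays had a correlation from 0.983 to 0.996. The seed coat genes Ep, SCB1 and HPS were above background in every plant, and the log2 of their summed signal was 14.3 to 14.5 in black (iRT) and 14.2 to 14.7 in brown (irT) plants. Of 32 probe sets for seed maturation proteins of the PM and LEA groups, taken as embryo markers, 22 were above background in every plant. They did not all vary alike. A probe set of PM37 had 13.30 to 13.57 over all plants, and a probe set of PM30 had 6.22 to 12.09. The log2 of the sum over the 32 was 14.56 to 15.35 in black and 14.47 to 14.84 in brown plants. That sum is led by a few bright probe sets, and the maturation score, the mean deviation of the 32 probe sets from their own means, spread further. It was 1.88, 0.80 and -0.96 in the black and -0.66, 0.35 and -1.43 in the brown plants, so the genotypes overlapped. Of 11 probe sets for the storage proteins glycinin and conglycinin, 7 were above background in every plant, with log2 sums of 11.4 to 12.3 and 11.1 to 11.8. Their part in the results below was not tested, other than by a fit that holds the maturation score of each plant. As in any whole tissue, fewer cells of a type and less RNA per cell cannot be told apart.

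Of the 17 probe sets, 6 were above background in all plants and 10 were at background in all plants. F3H-like was above background in 2 plants. The genes with signal were CHI2-A, CHI1A, CHI4A and F3H, and those without were CHI1B1, CHI3A1 and FLS1. The plot of signals by plant shows this separation, with an empty range between the background level and the lowest of the detected probe sets.

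**Figure D1:**
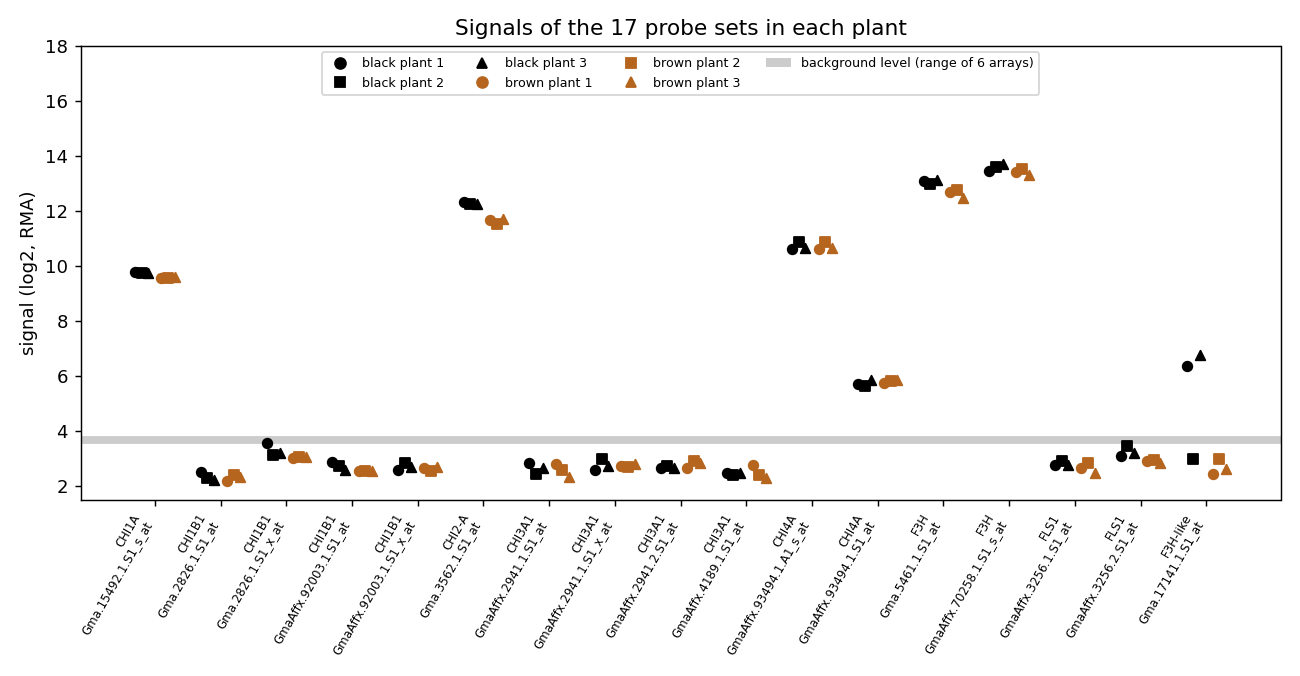
Log2 signal (vertical axis) of the 17 probe sets of CHI, F3H, FLS and F3H-like (horizontal axis) in 3 black (black marks) and 3 brown (brown marks) plants, each mark 1 plant, with the grey band showing the background level of the 6 arrays (3.54 to 3.78). At 6 positions there are marks far above the band in all plants, 10 lie in all plants below the background level of their own arrays, and F3H-like has black plants 1 and 3 above it and the other 4 plants below it.

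CHI2-A, the type I isomerase, had the widest gap between the genotypes among the detected CHI, F3H and FLS probe sets. Its signals were 12.33, 12.26 and 12.27 in black and 11.69, 11.52 and 11.72 in brown plants. Every black plant lay above every brown plant, with 0.54 between the lowest black and the highest brown signal. The black mean was 12.29 ± 0.040 and the brown mean 11.64 ± 0.11 (SD, n = 3), which is a 1.56-fold higher level in black seed coats (95% confidence interval 1.34 to 1.82). In limma the difference of 0.64 (SE 0.093) had an adjusted p of 0.0941 and missed the threshold of 0.05. With the trend and robust settings of limma the same difference had an adjusted p of 0.0106 and passed it. Over all alternatives fitted with limma, the adjusted p was 0.0106 to 0.396. With the maturation score of each plant in the fit the difference was 0.66 (adjusted p = 0.260). On the arrays CHI2-A ranked between positions 375 and 976 of the 37641 soybean probe sets.

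CHI1A, a type II isomerase, was nearly constant within each genotype. Its only probe set ends in _s_at, a suffix for probe sets that can match more than 1 transcript, so the signal cannot be assigned to CHI1A alone. It had signals of 9.77, 9.73 and 9.73 in black and of 9.55, 9.56 and 9.58 in brown plants. Here too the genotypes did not overlap, but the gap was only 0.15. The difference was 0.18 (SE 0.080, limma adjusted p = 0.611), or 1.13-fold with an interval of 0.995 to 1.29. The SD within a genotype was 0.020, which is lower than that of all but 0.22% of the soybean probe sets, whose median SD was 0.15. Limma draws so small a spread towards that of other probe sets, and its SE for CHI1A is accordingly several times the SD.

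In the RefSeq gene table of the Glycine_max_v4.0 assembly, CHI1A, CHI1B1 and CHI2-A are direct neighbours on the chromosome in that order. The probe sets of the middle gene, another type II isomerase, were at background while those named for the genes on either side of it were detected in every plant. CHI1B1 has 4 probe sets, with signals from 2.19 to 3.56 over all plants. The highest of these, 3.56 in black plant 1 on a probe set ending in _x_at, was still below the background level of that array. In addition, 2 probe sets carry both CHI1B1 and CHI1B2 as symbols and were therefore not counted among the 17. The brighter of them had 3.72 in black plant 1, just above the background level of 3.70 on that array, and 3.01 to 3.13 in the other plants.

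The non-catalytic forms showed no called difference between the genotypes. CHI3A1, a type III protein, was at background in all plants on its 4 probe sets, with signals from 2.28 to 2.96. CHI4A, of type IV, was detected on its 2 probe sets. On the probe set ending in _s_at the black plants had 10.61, 10.88 and 10.67 and the brown plants 10.60, 10.85 and 10.65, so the genotypes overlapped over almost their whole range. The difference was 0.021 (95% confidence interval -0.25 to 0.29, limma adjusted p = 0.975), and its sign changed when single plants were left out. On the probe set ending in S1_at the signals were 5.70, 5.63 and 5.86 in black and 5.72, 5.81 and 5.83 in brown plants, with a difference of -0.056 (interval -0.28 to 0.17, adjusted p = 0.905). The intervals on both probe sets leave out a difference of the size seen for CHI2-A.

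F3H gave some of the brightest signals on the arrays in both genotypes, which does not rank its transcript against others, since probe sets differ in how strongly they bind. The annotation gives it 2 probe sets, and the RefSeq table lists the gene with F3H2 as a further name. On the probe set of F3H ending in S1_at, called the first here, the black plants had 13.08, 12.98 and 13.12 and the brown plants 12.70, 12.75 and 12.48. The genotypes did not overlap, and the lowest black plant was 0.23 above the highest brown plant. The difference was 0.42 (SE 0.11, limma adjusted p = 0.415), or 1.34-fold with an interval of 1.13 to 1.59. This probe set ranked from position 104 to position 335 of 37641 on the arrays.

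The second F3H probe set, ending in _s_at, was brighter still, at positions 33 to 76. Its signals were 13.45, 13.61 and 13.71 in black and 13.42, 13.51 and 13.31 in brown plants, and black plant 1 lay below brown plant 2. The difference of 0.17 (SE 0.11, adjusted p = 0.703) had an interval of -0.075 to 0.43. As for CHI1A, the suffix means that the signal cannot be assigned to F3H alone. Within each plant, the first probe set minus the second was -0.37, -0.63 and -0.59 in black and -0.73, -0.76 and -0.83 in brown plants. The genotypes did not overlap in this difference (0.24, exact permutation test, two-sided, p = 0.1, which is the smallest p that 3 plants against 3 allow).

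Differences between probe sets within a plant do not move when a whole array is scaled up or down, and 3 such pairs were computed. CHI2-A minus CHI1A was 2.56, 2.53 and 2.54 in black and 2.13, 1.97 and 2.14 in brown plants. The contrast between the probe sets of these genes was thus 0.46 larger in black seed coats, with an SD of 0.018 among black and 0.098 among brown plants. The first F3H probe set minus CHI1A was 3.31, 3.25 and 3.39 in black and 3.15, 3.20 and 2.90 in brown plants, a difference of 0.24. Neither pair overlapped between genotypes. Both were formed from the 3 detected probe sets on which the genotypes already did not overlap. The lack of overlap is therefore a description and not separate support. Each of the 3 pairs had an exact permutation p of 0.1, two-sided, and 0.1 after adjustment over the 3, so none could pass 0.05 in this design.

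**Figure D2:**
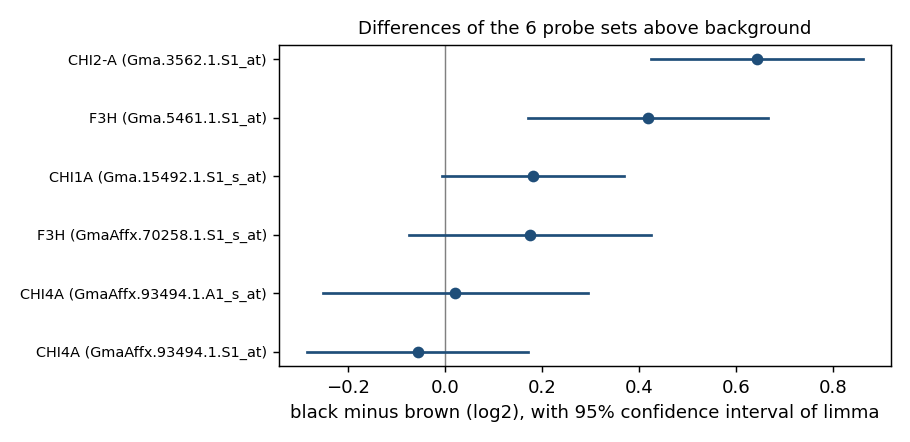
Black minus brown difference in log2 signal (horizontal axis) for the 6 detected probe sets of CHI and F3H (vertical axis), with points for the difference of the means of 3 plants and lines for the 95% confidence interval of limma. The intervals of CHI2-A (0.42 to 0.86) and of the first F3H probe set (0.17 to 0.67) lie above 0, and the other 4 include it.

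FLS1, the only flavonol synthase taken by symbol, gave no signal above background in either seed coat. On 1 of its 2 probe sets the signals were 2.47 to 2.89 over all plants. On the other they were 3.07, 3.44 and 3.19 in black and 2.90, 2.94 and 2.83 in brown plants. These black signals lay above the brown ones but below the background level of their own arrays, so no fold is given. A transcript at this level was not detectable on the arrays, which does not show that it is absent. Flavonol synthase probe sets without a symbol, if any, were not examined.

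Over the 16 probe sets with a symbol, limma called none higher and none lower in black seed coats. Of all soybean probe sets 0.0664% were called higher and 0.0425% lower. At an unadjusted p under 0.05 there were 3 of the 16, against 8.32% of all soybean probe sets. Of these, 2 were detected and the third was at background in every plant, where a difference is not read. The SAM statistic at the thresholds of the study called none. These thresholds were 0.01 for p, together with a fold above 2 or below 0.5. CHI2-A and the first F3H probe set passed the p threshold of SAM, and the other 4 detected probe sets did not. Their folds of 1.56 for CHI2-A and 1.34 for F3H were below 2, so the fold threshold alone kept these probe sets from a call. Every black plant was above every brown plant in 6 of the 16, and the reverse held for none of them. Of all soybean probe sets 5.74% were above in this way and 8.30% below. Of these 6, 3 were detected (CHI2-A, CHI1A and 1 of F3H) and 3 were at background (2 of CHI1B1 and 1 of FLS1). Probe sets of 1 gene share its transcript and are not independent. The median difference over the 16 was 0.11 with the 10 at background included and 0.18 over the 6 detected, and over all soybean probe sets it was -0.017.

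F3H-like had another pattern, since the 3 black plants differed from each other. Its signals were 6.37, 2.98 and 6.76 in black plants 1, 2 and 3, and 2.44, 2.99 and 2.62 in the brown plants. All brown plants were at background, and black plant 2 lay at background within their range. Black plants 1 and 3 were more than 2 log2 units above every brown plant. The study had picked this probe set from these plants by its fold change, so its values are a description without a test. The mean of the black plants was at least 3.42-fold above the background level of the brown arrays, and this bound was 7.83-fold without black plant 2, 2.42-fold without black plant 1 and 2.11-fold without black plant 3.

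The spread of F3H-like within a genotype was an SD of 1.48, above that of 99.6% of the soybean probe sets. The SD of the detected CHI and F3H probe sets was between 0.020 and 0.14, near or below the median of 0.15 over all soybean probe sets. A search made after these values had been seen looked for other probe sets in which black plant 2 lay within or below the range of the brown plants and the other black plants lay over 2 log2 units above it. F3H-like was the only 1 of 37641. The same search with black plant 3 as the low plant found 30 probe sets, and with black plant 1 it found 0. The array of black plant 2 had the lowest limma array weight (0.607, against 0.731 to 1.64) and the lowest share of soybean probe sets above background (67.1%, against 68.6% to 70.1%). The maturation score was 1.88, 0.80 and -0.96 in black plants 1, 2 and 3. Black plant 2 thus lay between the plants in which F3H-like was detected. The part of these properties in the low signal was not tested.

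Black plant 2 was also looked at on 3 probe sets of other pathway enzymes that limma called higher in black seed coats. DFR2, a dihydroflavonol reductase, had 8.997, 8.72 and 8.85 in black and 2.69 to 3.03 in brown plants, which were at background. ANS2, the anthocyanidin synthase that makes the coloured product, had 13.32, 13.23 and 13.29 in black and 10.51, 10.88 and 10.18 in brown plants. A chalcone synthase probe set annotated CHS1, the bright member of a pair that rose, had 5.63, 5.75 and 6.53 against 2.41 to 2.71. On these 3 probe sets black plant 2 stood with the other black plants, and no overlap with brown plants was seen. They were called from these same plants, so this place of black plant 2 was largely fixed by the choice. It does not show how the plant stood on other probe sets.

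**Figure D3:**
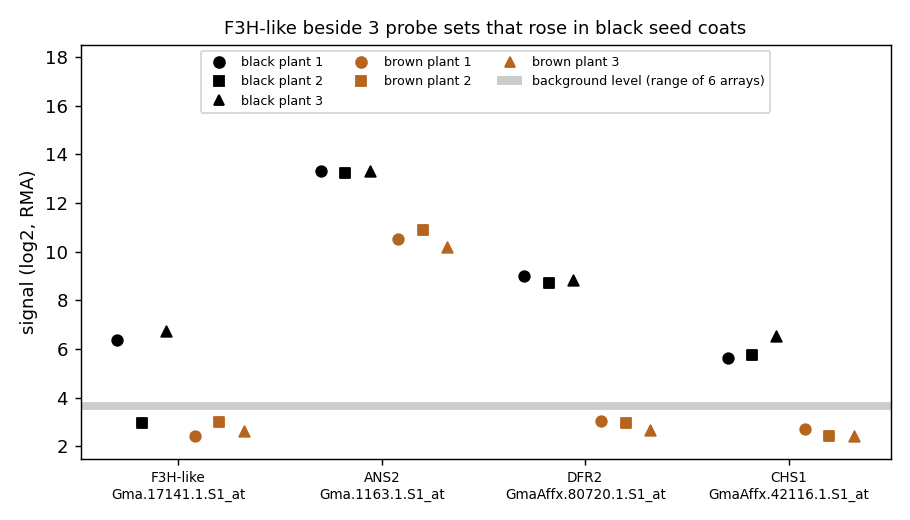
Log2 signal (vertical axis) of F3H-like and of ANS2, DFR2 and a CHS1-annotated chalcone synthase probe set (horizontal axis) in each black (black marks) and brown (brown marks) plant, each mark 1 plant, with the grey band showing the background level of the 6 arrays. Black plant 2 (square) is at 2.98 for F3H-like, among the brown plants, and at 13.23, 8.72 and 5.75 for the other probe sets, among the black plants. Those other probe sets were chosen as called higher in black on these same plants.

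The other enzymes of phenylpropanoid, flavonoid and isoflavone synthesis gave 50 probe sets by their symbols. Limma called 5 of them higher and 3 lower in black (iRT) seed coats, and 8 of the 50 were at background in all plants. Their median difference was 0.095, beside 0.11 for the 16 CHI, F3H and FLS probe sets and 0.18 for the 6 of them above background. No probe set carried a flavonoid 3'-hydroxylase symbol alone, so the rule by symbols left this enzyme out. The study does name a probe set of these arrays for it, and reports that probe set as lower in black seed coats. The glycosyltransferase UGT78K1 entered the list only by a probe set at background in all plants. For this gene the study reports another probe set as higher in black seed coats, and likewise a probe set of UGT78K2. The counts therefore do not cover the whole pathway. The list overlaps with genes that the study reported from these plants, so its counts are not independent evidence of a direction.

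Upstream of CHI, phenylalanine ammonia-lyase, cinnamate 4-hydroxylase and 4-coumarate-CoA ligase had 12 probe sets. Only 4CL4, a ligase that activates coumaric acid, was called. It rose 2.27-fold in black seed coats (difference 1.18, SE 0.13, limma adjusted p = 0.0460). The call was lost whenever any 1 of the 6 plants was left out (adjusted p = 0.0696 to 0.213). The study names this probe set 4CL2, a symbol that the annotation gives to other probe sets, which were not called. It also reports a 4CL-like probe set, outside the list by symbols, as higher in black seed coats.

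Chalcone synthase (CHS), which makes the substrate of CHI, had probe sets called in either direction. Of 7 probe sets annotated CHS1, the pair named above rose, the brighter at least 5.18-fold (limma adjusted p = 0.00361) and its companion, ending in _x_at, at least 4.21-fold (0.00960). The companion was not called without black plant 1 or without any 1 of the brown plants (adjusted p = 0.0598 to 0.0758). A further one fell 35.5-fold (7.50e-05), from 8.86, 9.27 and 9.04 in brown to 4.05, 3.58 and 4.09 in black plants. Of these black plants, plant 2 was below the background level of its array, so the fold depends in part on a signal at background. Another, ending in _s_at, fell at least 14.0-fold (2.17e-05). CHS genes of soybean are close copies of each other, so the symbol does not settle which gene each probe set reads. The study assigns the rising pair to CHS4 or CHS5, and the falling probe set ending in _s_at to CHS9. It names the probe set that fell 35.5-fold CHS1. Its semi-quantitative RT-PCR with primers for each gene found CHS4 but not CHS5 higher in black seed coats. The 5 probe sets annotated CHS8 were all above background and none was called, with differences from -0.45 to 0.077. No probe set carried the symbol CHS7 alone.

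Downstream of F3H, DFR2 rose at least 38.2-fold (limma adjusted p = 1.18e-05) and ANS2 rose 6.77-fold (0.00261). DFR1, a stage marker of the study, had 12.64, 12.67 and 12.61 in black and 12.64, 12.44 and 12.56 in brown plants, and the genotypes overlapped (difference 0.093, adjusted p = 0.810). LAR1, a leucoanthocyanidin reductase of the proanthocyanidin branch, fell to 0.443 of its brown level (adjusted p = 0.00361), with 7.86, 7.90 and 7.92 in black and 9.07, 9.05 and 9.08 in brown plants. Without brown plant 1 or brown plant 3 it narrowly missed the threshold (adjusted p = 0.0519 and 0.05002). The detected CHI and F3H probe sets, at 0.962-fold to 1.56-fold, lay between these called steps of the pathway. Of the 50 other pathway probe sets 42 were not called, so the lack of a call was not particular to CHI and F3H.

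**Figure D4:**
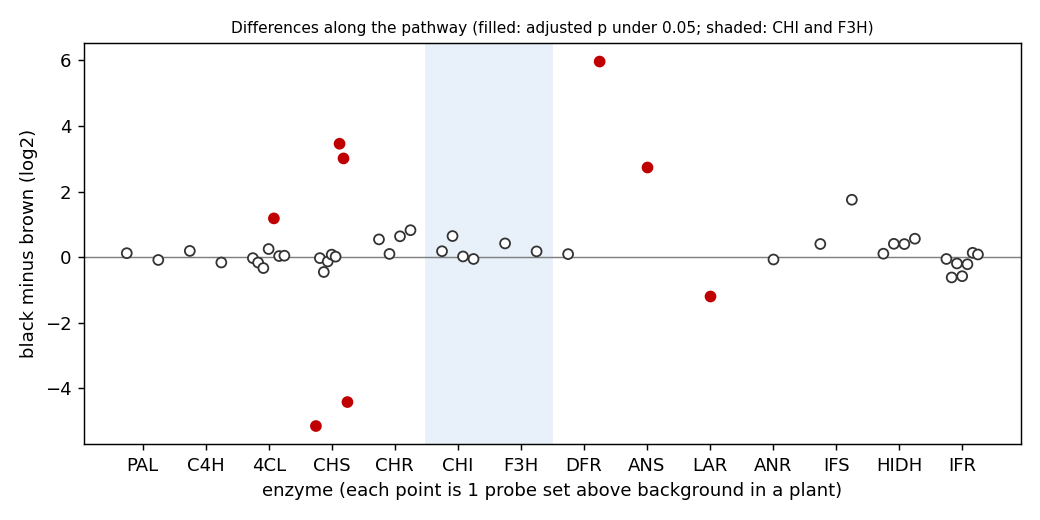
Black minus brown difference in log2 signal (vertical axis) of each probe set above background in at least 1 plant, by enzyme in pathway order (horizontal axis), with filled points for a limma adjusted p under 0.05 and the shaded columns holding the CHI and F3H probe sets. Points of CHI and F3H lie between -0.056 and 0.64, while called points of 4CL, CHS, DFR, ANS and LAR range from -5.15 to 5.96; where a genotype was at background the difference of the measured signals is drawn.

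The isoflavone branch shares CHI with the pigment branch. By symbol, isoflavone synthase, 2-hydroxyisoflavanone dehydratase and isoflavone reductase had 15 probe sets, and none was called. Chalcone reductase (CHR), which works with chalcone synthase to make the chalcone that only type II CHI uses, had 5, and none was called. Probe sets outside these were not examined. Among them, the study reports an isoflavone reductase-like probe set as lower in black seed coats and a probe set of the isoflavonoid gene G4DT as higher. Black plant 1 was the highest plant on 11 of the 20 probe sets taken by symbol, and by more than 1 log2 unit on 4 (2 of CHR1, CHR5 and IFS1). Over all 37641 soybean probe sets it was the highest plant on 6609, and by more than 1 log2 unit on 222. CHR5 had 6.77 in black plant 1 and 3.65 to 4.12 in the other plants. IFS1, an isoflavone synthase, had 6.85 in black plant 1, 4.44 in black plant 2, 3.39 in black plant 3 and 3.12 to 3.17 in the brown plants. These genes were picked out after their values were seen. Black plant 1 was also the plant with the highest maturation score (1.88), and the part of this in the result was not tested. CHI2-A, CHI1A and the first F3H probe set did not show this pattern, since black plant 1 lay at most 0.074, 0.040 and 0.10 from the other black plants on them.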

How the data were processed

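RNA of 3 black and 3 brown plants was hybridized to 6 arrays. The authors ran RMA over all arrays (background adjustment and normalization), which gave the deposited log2 signals. The version of that software is not given in the sources used here. Tables of the authors' own fold ratios and p-values were not used. The number of arrays limits the precision.

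Genotypes were compared unpaired in R 4.3.3 with lmFit and eBayes of limma 3.58.1 (two-sided, prior degrees of freedom 3.17), and p-values were adjusted by Benjamini-Hochberg over 37641 soybean probe sets. Same-numbered plants did not count as pairs. A fold against a genotype at background in all plants is a lower bound, computed with the background level of each array. Probe sets named are all of CHI, F3H and FLS, pathway probe sets with an adjusted p under 0.05, DFR1, CHS7 and CHS8. CHR1, CHR5 and IFS1 were named after their values were seen. Members and lists were chosen with earlier results of these data known. Gene neighbours came from RefSeq (Glycine_max_v4.0), in which all 7 symbols matched. The fits were also run on simulated arrays without correlation between probe sets. The planted differences were larger than those of the detected CHI and F3H probe sets. These runs therefore do not show how well such small differences are found. Tables and figures were made with Python 3.11.15, pandas 2.3.3 and matplotlib 3.10.9.

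Alternatives were limma with trend and robust settings, the SAM statistic, array weights, median centring, cyclic loess, all probe sets, no dim probe sets, no probe sets shared between transcripts, single plants left out, the replicate number as a block and a 99th percentile for the background. The maturation score as a covariate was chosen after seeing the data.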

Additional observations from a re-analysis of the deposited data

How the results depend on the processing

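The count of CHI, F3H and FLS probe sets called higher was 0 under all alternatives but limma with trend and robust settings, which gave 1, CHI2-A, and the count called lower was 0 under all. Under SAM the count of 0 higher depended on the fold threshold of 2. With 10 probe sets at background and 3 plants a genotype, small differences were not detectable. The median difference of the 16 probe sets moved from 0.11 to 0.14 with array weights, 0.16 with median centring, 0.092 with cyclic loess, 0.18 without dim probe sets and 0.098 with the maturation score as a covariate, and from 0.087 to 0.16 with single plants left out. The CHI4A difference on the probe set ending in _s_at changed sign to -0.062 without black plant 2, -0.028 without brown plant 1, -0.0055 without brown plant 3 and -0.013 with the maturation score, within a range of -0.062 to 0.097, and the cause was not tested. The other 5 detected probe sets kept their sign throughout. Of the other pathway probe sets, 3 to 4 were called higher and 2 to 3 lower with single plants left out. Of the 5 higher calls, 4CL4 was lost without any 1 of the plants, with the block and with the maturation score, and the CHS1 probe set ending in _x_at without black plant 1 or any brown plant. LAR1 was not called without brown plant 1 or brown plant 3. The lower bound for F3H-like ranged from 1.08 to 2.97 on the log2 scale. The count of 10 probe sets at background was the same with the 99th percentile.

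The deviations of same-numbered plants from their genotype means were correlated at 0.092, 0.29 and 0.50, which does not settle whether the numbers mark pairs. The numbers were not taken as pairs because the labels do not say that they share a day or batch. With the replicate number as a block, 0 CHI, F3H and FLS probe sets were called, 4 other pathway probe sets were higher and 3 lower, and the adjusted p of CHI2-A was 0.261. Over all soybean probe sets the block left 14 called higher and 9 lower, against 25 and 16 without it. Median centring called 39 higher and 17 lower over all soybean probe sets, and moved their median by 0.049.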
